A study of Mus musculus with 19 samples.

Results

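The saline control hearts are the 6 vehicle-treated hearts in a study of 19 whole mouse hearts, and they were taken by their group label. Each came from 1 male WT C57BL6/J mouse, aged 12 weeks per the labels, whose osmotic minipump delivered sterile saline over 21 days. They are therefore hearts of mice with an implanted pump, not of untouched mice. Hearts given isoproterenol or minocycline were not used here. Each library is named by the animal number in its label (940, 944, 947, 949, 950 and 956). Small RNA of the whole heart was sequenced, and the deposited table gives 595 entries, of which 518 had at least 1 read in these hearts. Libraries held 4182389 to 5608544 reads of listed entries. All levels below are a percentage of those reads, so they rank microRNAs within a heart and do not give copies per cell. In a whole organ, fewer cells of a type and less RNA per cell cannot be told apart.

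A microRNA is cut from a hairpin precursor, whose arms give a 5p and a 3p product, and one of these products is usually kept while the other is degraded. The mature strand guides a silencing complex to messenger RNAs, and it recognises them mainly through its seed, bases 2 to 8 from the 5′ end. MicroRNAs that share a seed share many targets and are grouped as a family. In the heart, miR-1 and miR-133 are made from shared muscle-specific transcripts, miR-208a, miR-208b and miR-499 lie inside myosin heavy chain genes, miR-126 marks endothelium, and miR-143 with miR-145 marks smooth muscle.

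The sequences below carry the main features of these hearts, with the seed in capitals. The first set marks cell types. miR-126a-3p lies at chr2:26591402-26591423 (plus strand, an exon of Egfl7 on that strand), miR-499-5p at chr2:155622893-155622913 (plus strand, an intron of Myh7b) and miR-208a-3p at chr14:54949072-54949093 (minus strand, an intron of Myh6), all in GRCm38.p6 with gene models of GENCODE M21.
miR-126a-3p: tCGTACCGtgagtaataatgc
miR-499-5p: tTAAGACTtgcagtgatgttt
miR-208a-3p: aTAAGACGagcaaaaagcttgt

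The next set shows the seed families that follow the muscle microRNAs in abundance. miR-30a-5p (chr1:23272274-23272295, plus strand, no host gene on that strand), miR-30e-5p (chr4:120772660-120772681, minus strand, an intron of Nfyc) and miR-30c-5p (also in Nfyc, at chr4:120769584-120769606, with another locus on chromosome 1) share a seed, as do let-7g-5p (chr9:106178846-106178867, plus strand, an intron of Wdr82) and let-7f-5p (chr13:48537889-48537910, minus strand, an exon of 6720427I07Rik, with another locus on chromosome X). The listed miR-30a-5p and miR-30e-5p differ in 1 of 24 bases.
miR-30a-5p: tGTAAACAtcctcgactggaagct
miR-30e-5p: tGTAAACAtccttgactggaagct
miR-30c-5p: tGTAAACAtcctacactctcagct
let-7g-5p: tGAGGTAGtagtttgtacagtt
let-7f-5p: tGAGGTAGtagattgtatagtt

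The miR-10 pair varied most between hearts among abundant microRNAs. miR-10a-5p lies at chr11:96317186-96317208 (plus strand, no host gene on that strand) and miR-10b-5p at chr2:74726074-74726096 (plus strand, within introns of Hoxd3 and Hoxd4). Their listed sequences differ in 1 of 22 bases.
miR-10a-5p: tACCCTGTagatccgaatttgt
miR-10b-5p: tACCCTGTagaaccgaatttgt

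The last set shows a listed 5′ end that differs from the reference, which moves the seed by 1 base. miR-140-3p (chr8:107551288-107551308, plus strand, an exon of Wwp2) and miR-101b-3p (chr19:29135338-29135356, plus strand, an intron of Rcl1) each start 1 base later in the table than in RefSeq. With this start, miR-101b-3p has the seed of miR-101a-3p (chr4:101346957-101346977, minus strand, an exon of E130102H24Rik). The RefSeq forms are written with u and the deposited forms with t.
miR-140-3p, RefSeq: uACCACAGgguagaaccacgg
miR-140-3p, deposited: aCCACAGGgtagaaccacggac
miR-101b-3p, RefSeq: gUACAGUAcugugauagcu
miR-101b-3p, deposited: tACAGTACtgtgatagctgaag
miR-101a-3p, deposited: tACAGTACtgtgataactgaat

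A single muscle microRNA dominated every heart. miR-1a-3p, which restrains growth and proliferation of heart muscle cells, took 49.6, 46.2 and 50.7% of reads in hearts 940, 944 and 947, and 38.0, 35.8 and 36.8% in hearts 949, 950 and 956. Its mean was 42.8% ± 6.73 (SD, n = 6). miR-133a-3p, its partner from the same transcripts, followed at 9.65% ± 1.99 (SD, n = 6), from 8.02 to 12.5% with a median of 8.76%. The next places went to microRNAs of other cells and of metabolism. miR-143-3p of smooth muscle held 4.90% ± 0.716, miR-378a-3p, which lies in the gene of the mitochondrial coactivator PGC-1β, held 3.94% ± 0.644, and endothelial miR-126a-3p held 2.65% ± 0.374 (SD, n = 6 each).

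**Figure D1:**
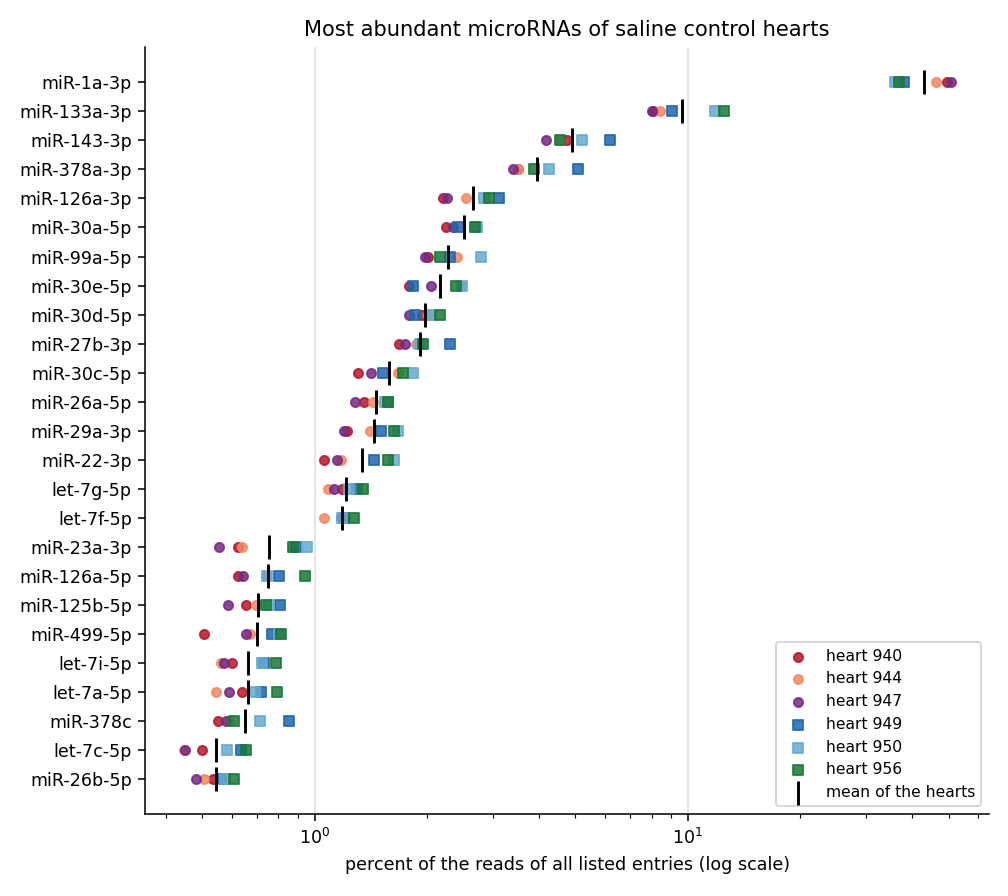
Percent of reads (log scale) of the 25 most abundant microRNAs, with 1 point per saline control heart and a black line at the mean (circles, hearts with miR-1a-3p at 44% or more; squares, hearts below). miR-1a-3p lies apart at 35.8 to 50.7%, and the points of most neighbours in the order overlap.

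The distribution was steep. The 10 most abundant microRNAs held 74.8% ± 3.10 of reads (SD, n = 6), and 27 microRNAs held 90% by mean share, or 24 to 30 in single hearts. Of 522 mature names listed, 16 were at 1% or more and summed to 83.04% of reads, 42 lay between 0.1 and 1% and summed to 13.996%, and 73 lay between 0.01 and 0.1% and summed to 2.40%. At the other end, 210 were above 0 but under 0.001%, and 65 were listed at 0 in all 6 hearts. Reads were present in every heart for 325 names.

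Below the first 5 places the order was loose. Among the 24 neighbouring pairs of the 25 most abundant microRNAs, 7 had the same order in all 6 hearts (exact two-sided sign-flip permutation test, p = 0.0312 each, the smallest that 6 hearts allow). None passed after Benjamini-Hochberg adjustment over the 24 pairs (0% called, lowest adjusted p = 0.107, exact permutation test). With 7 pairs at the smallest possible p, that adjusted value was fixed whatever the size of the steps, so none could pass. The steps from miR-1a-3p down to miR-126a-3p all kept their order in 6 of 6 hearts. miR-126a-3p was above miR-30a-5p in only 3 of 6 hearts, and let-7i-5p was above let-7a-5p in 3 of 6. Since the order was read from these same hearts, this describes its steadiness.

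The hearts with a larger miR-1a-3p share also had more reads in all, while the reads of all other entries overlapped. Counts of miR-1a-3p were 2643439, 2588785 and 2517934 in hearts 940, 944 and 947, against 1641658, 1498772 and 1616156 in hearts 949, 950 and 956. All other entries together gave 2689199, 3019759 and 2452316 reads in the former and 2676838, 2683617 and 2777117 in the latter, so these sums overlapped. Total reads were higher in each of the former hearts (4970250 or more) than in each of the latter (4393273 or fewer), and the part of depth in the miR-1a-3p share was not tested.

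**Figure D2:**
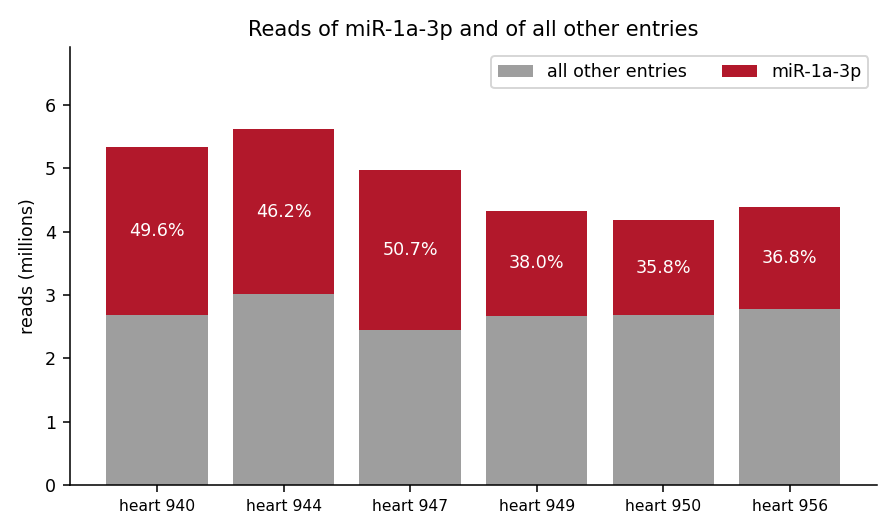
Reads for each saline control heart, split into miR-1a-3p (red, with its percent of the total) and all other entries (grey). The red part is larger in hearts 940, 944 and 947 (46.2 to 50.7%) than in hearts 949, 950 and 956 (35.8 to 38.0%), while the grey part overlaps.

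The other heart muscle microRNAs were compared in the reads left without miR-1a-3p. Because the hearts were divided by the miR-1a-3p share, its ratio to another microRNA differs between them largely by construction and is given as a description. There were 6.15, 5.47 and 6.32 reads of miR-1a-3p for each read of miR-133a-3p in hearts 940, 944 and 947, and 4.19, 3.03 and 2.95 in hearts 949, 950 and 956. Of the reads left without miR-1a-3p, miR-133a-3p took 15.97, 15.68 and 16.25% in the former and 14.6, 18.4 and 19.7% in the latter, which overlapped. miR-499-5p, from the myosin gene Myh7b, took 1.001, 1.248 and 1.327% of that remainder in the former and 1.24, 1.25 and 1.28% in the latter, also overlapping. The same held for miR-208a-3p at 0.0505 to 0.0790%.

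Within the myosin-encoded set, the adult form prevailed. miR-208a-3p, from the adult fast myosin gene Myh6, had 1352 to 2385 reads per heart, whereas miR-208b-3p, from the slow myosin gene Myh7 that prevails in the fetal ventricle, had 0 to 43. Their ratio was 79.3 ± 21.9 (SD, n = 5) over the hearts with a read of miR-208b-3p. The heart with 0 reads of miR-208b-3p was heart 940. miR-133b-3p had 62.5 ± 4.04 times fewer reads than miR-133a-3p (SD, n = 6). From base 2 on, the listed miR-133b-3p equals the first 20 bases of the listed miR-133a-3p, so reads of the pair cannot be told apart with certainty.

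The miR-30 and let-7 seeds had the most members among the leading seeds. The miR-30 seed, shared by 6 listed microRNAs and known for limiting connective tissue growth factor in heart, summed to 8.76% ± 0.875 of reads (SD, n = 6). The let-7 seed, shared by 10 and associated with differentiated cells, summed to 5.11% ± 0.582 (SD, n = 6), which overlapped the miR-143 and miR-378 seeds and was below both in heart 949 (5.58% against 6.19 and 6.20%). In the former, miR-30a-5p (2.52%), miR-30e-5p (2.17%), miR-30d-5p (1.97%) and miR-30c-5p (1.58%) were of like abundance, and miR-30b-5p was lower at 0.518%. In the latter, let-7g-5p (1.21%) and let-7f-5p (1.18%) led, and miR-98-5p was at 0.0337%.

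Of 370 seeds with a read, 316 belonged to 1 microRNA each, and the 10 most abundant seeds held 85.9% of reads. Seeds were read from the listed sequences, so an entry listed with another 5′ end is counted apart from its family. miR-133a-3p stood alone under its seed in this way. The 4 listed miR-378 microRNAs with 1 seed summed to 4.81% ± 0.782. miR-99a-5p, miR-99b-5p and miR-100-5p summed to 2.79% ± 0.355, miR-27a-3p with miR-27b-3p to 2.35% ± 0.291, and miR-26a-5p with miR-26b-5p to 2.004% ± 0.164 (SD, n = 6 each). The miR-29 family, which represses collagens, came mostly from miR-29a-3p at 1.44%, with miR-29c-3p at 0.0808% and miR-29b-3p at 0.00880%.

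MicroRNAs of 1 cluster differed in reads to very different degrees. miR-195a-5p and miR-497a-5p were close, with a ratio of 1.14 ± 0.171 and the first higher in only 4 of 6 hearts. miR-30e-5p had 1.37 ± 0.0946 times the reads of miR-30c-5p, which has a further locus, and miR-23a-3p had 1.72 ± 0.140 times those of miR-27a-3p. Ratios of other pairs were larger. miR-143-3p had 18.7 ± 2.97 times the reads of miR-145a-5p, with 14.9 to 23.8 in single hearts. miR-191-5p had 51.5 ± 6.20 times the reads of miR-425-5p. miR-99a-5p had 4.25 ± 0.767 times the reads of let-7c-5p and 3.23 ± 0.331 times those of miR-125b-5p, although miR-125b-5p and let-7c-5p each have a further locus. Apart from miR-195a-5p, the first named was higher in 6 of 6 hearts (SD, n = 6).

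Muscle microRNAs prevailed among the markers. Summed over the lists of microRNAs that mark cell types, heart muscle (8 of 8 with reads) held 53.5% ± 5.003 of reads, smooth muscle and pericytes (4 of 4) held 5.25% ± 0.724, and endothelium (2 of 2) held 3.40% ± 0.473 (SD, n = 6 each). Most of the heart muscle sum was miR-1a-3p (42.8%) and miR-133a-3p (9.65%), whose transcripts are muscle-specific. That sum alone therefore does not tell heart from other muscle. miR-208a-3p, from Myh6, held 0.0370%. Mesenchymal microRNAs were far less abundant: miR-199a-5p, miR-199b-5p, miR-199b-3p and both arms of miR-214 summed to 0.273% ± 0.0250 (SD, n = 6), and miR-199a-3p is not listed under its own name. Both arms of miR-214 had their fewest reads in heart 947, with 492 of miR-214-3p and 31 of miR-214-5p, against up to 1080 and 82 in other hearts.

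Blood microRNAs were present in each heart. White cell microRNAs summed to 0.0979% ± 0.0124 (SD, n = 6), mostly miR-150-5p of lymphocytes at 2758 to 3568 reads, with miR-155-5p at 871 to 1149 reads, miR-223-3p of myeloid cells at 297 to 450 and miR-142a-3p, common to white cells, at 61 to 172. Red cell microRNAs summed to 0.558% ± 0.0665 (SD, n = 6), of which miR-486b-5p, which muscle makes too, gave 0.499%. The erythroid miR-451a ranged from 978 reads in heart 949 to 4245 in heart 950, and miR-144-3p from 58 to 331 in the same hearts.

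MicroRNAs best known from other organs were present at low levels or at 0. The liver, kidney and gut list (4 of 4 with reads) summed to 0.0589% ± 0.00863 (SD, n = 6). Most of this was miR-192-5p at 1514 to 2007 reads and miR-194-5p at 670 to 926 reads, both made in intestine, kidney and liver. The neuronal list summed to 0.0433% of reads, almost all of it miR-128-3p at 1702 to 2190 reads, while miR-124-3p was listed at 0 in all 6 hearts. The epithelial list summed to 0.00845%, mostly miR-203-3p at 239 to 393 reads, with miR-200c-3p at 38 to 84. In the same list, miR-429-3p was at 0 and miR-141-3p had 5 reads in 1 heart. Hepatic miR-122-5p had 57 to 163 reads in 5 hearts and 400 in heart 940. miR-206-3p, the microRNA of skeletal muscle, had 5 to 14 reads. The sequence listed for it differs from the listed miR-1a-3p in 1 of 20 bases and from the RefSeq miR-206-3p also in 1 of 20, so these few reads cannot be assigned to either. None of the 6 pluripotency microRNAs on the list was in the table.

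**Figure D3:**
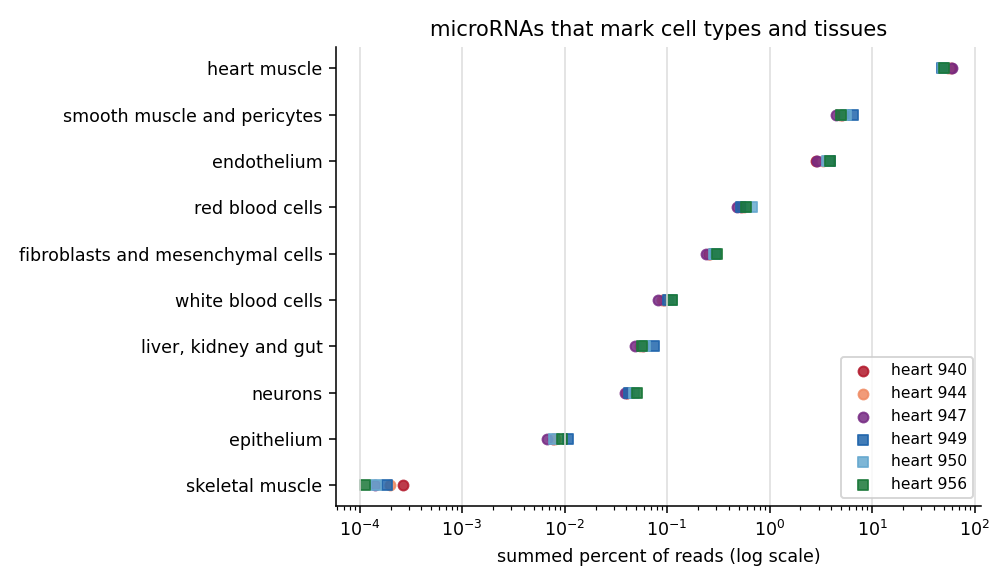
Summed percent of reads (log scale) of the microRNAs that mark each cell type or tissue, with 1 point per saline control heart. Heart muscle microRNAs sum to 48.2 to 59.6%, smooth muscle to 4.47 to 6.53% and endothelium to 2.83 to 3.92%, and the lists below that of fibroblasts lie at or below 0.112%.

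Most precursors gave nearly all their reads from 1 arm. Of 171 microRNAs with both arms listed, 151 had a mean of at least 10 reads and were tested for unequal arms. The 5p arm was higher for 86 (57.0% called) and the 3p arm for 55 (36.4% called), by limma on log2((5p reads + 1)/(3p reads + 1)) at an adjusted p below 0.05. For 94 of these pairs the arms differed over 10-fold, and for 56 over 100-fold. The same arm was higher in all 6 hearts for 141 pairs. A further 131 mature names had no listed partner arm.

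The dominant arm differed between the leading microRNAs. miR-1a-3p, miR-133a-3p, miR-143-3p, miR-378a-3p, miR-126a-3p and miR-27b-3p came from the 3p arm, while miR-30a, miR-30d, miR-30e, miR-99a and miR-499 were dominated by the 5p arm. Both miR-1a 5p products together averaged 34.5 reads. Mean 5p shares were 1.16% ± 0.151 for miR-133a, 3.13% ± 0.591 for miR-378a, 94.98% ± 0.628 for miR-30a (SD, n = 6 each), and miR-499 lay between 99.94 and 99.99% from 5p in single hearts.

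A smaller group kept both arms. The lesser arm held at least 20% of reads in 37 of the 151 pairs. The most abundant was miR-126a, whose 5p arm took 20.4 to 24.3% of the pair (mean 22.04% ± 1.39, SD, n = 6), so both products of this endothelial precursor were among the 25 most abundant microRNAs. let-7d gave 59.5% ± 2.48 from 5p (log2 ratio 0.56, SE 0.07), with the 5p arm higher in 6 of 6 hearts. Cardiac miR-208a gave 42.3% ± 4.45 from 5p (log2 ratio -0.45, SE 0.11, limma adjusted p = 0.00574), with the 3p arm higher in 6 of 6 hearts. miR-199b gave 26.3% ± 2.93, but its 3p sequence is also that of miR-199a-3p, so this share is uncertain.

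Some arm calls were slight. miR-322, of the miR-15 and miR-16 group, had 52.3 to 68.9% from 5p (log2 ratio 0.40, SE 0.16, limma adjusted p = 0.0411), and the call was lost without heart 940 (adjusted p = 0.0588), 947 (0.101) or 956 (0.0599) by limma. miR-423, miR-28a and miR-361 had 5p shares of 32.7% ± 3.42, 67.3% ± 2.74 and 66.9% ± 3.34 (SD, n = 6 each). Their calls were firmer (limma adjusted p = 2.75e-05, 1.71e-05 and 3.45e-05) and were kept without each heart in turn. In 10 pairs the arms were not told apart, among them the erythroid miR-144 (54.0% ± 6.18 from 5p, SD, n = 6) and miR-212 (48.5% ± 9.11), a microRNA induced by CREB.

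**Figure D4:**
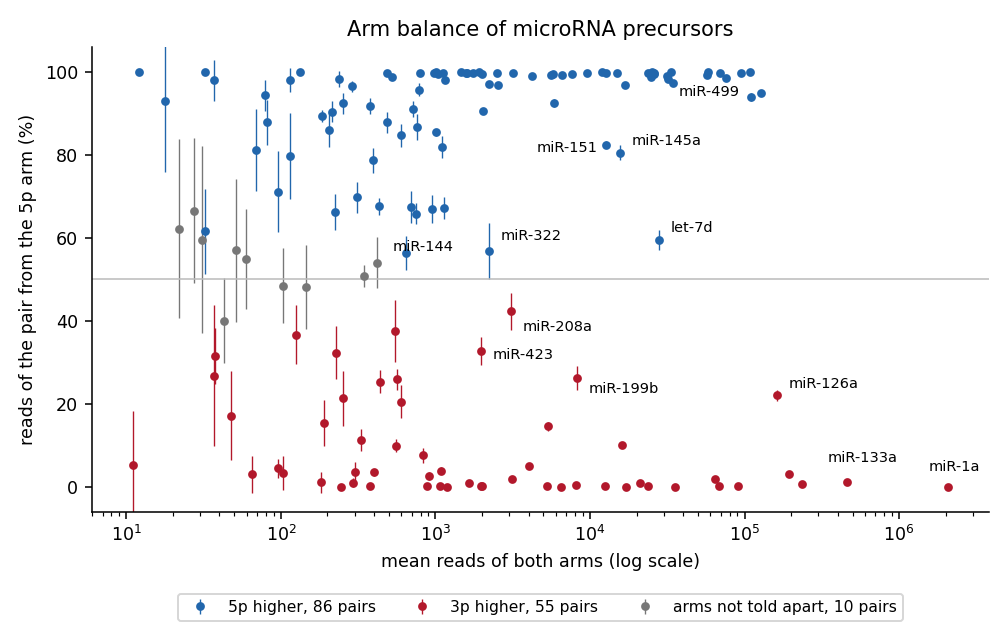
Percent of a pair's reads from the 5p arm against the mean reads of both arms (log scale) for 151 microRNA pairs, with 1 point per pair at the mean of 6 hearts and bars of 1 SD. Most points lie near 0 or 100%, the abundant pairs between them include miR-126a (22.04%), let-7d (59.5%) and miR-208a (42.3%), and the 10 grey pairs were not told apart.

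Many abundant microRNAs were listed with ends other than the reference. Each mature name carries a suffix that says how the listed sequence differs from the database entry, such as R+2 for 2 more bases at the 3′ end or L-1 for 1 fewer at the 5′ end. Of 524 mature entries, 259 had no suffix and held 63.9% of reads, 95 were longer at the 3′ end (16.6%), 91 were shorter there (8.62%), 36 differed at both ends (9.86%), 16 at the 5′ end alone (0.150%) and 27 carried a substitution (0.734%). Most of that 63.9% was miR-1a-3p, at 42.8%. Of the mature reads without miR-1a-3p, entries with no suffix held 35.8 to 39.0% in single hearts. Entries with a longer 3′ end, including those that differ at both ends, held 43.6 to 47.6%. A large part of this was miR-133a-3p, which differs at both ends and averaged 16.8% of all listed reads without miR-1a-3p. RefSeq held 454 of the entries by name, and in all 432 of these without a substitution the suffix matched the sequence. With few exceptions each microRNA has 1 entry and 1 sequence for all libraries. The table therefore cannot show how ends differ between hearts, and whether a count covers only that sequence or all variants is not given in the sources used here.

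Of the 25 most abundant microRNAs, 13 had no suffix, 7 were longer at the 3′ end, 4 were shorter there and 1 differed at both ends. The miR-30 members printed above were longer by 1 or 2 bases that continue the precursor. Over all 80 entries that were longer at the 3′ end alone and could be set against a precursor, the extra bases matched it in 57 and did not in 23. In 20 of these 23 the extra base was a single T (U in RNA), among them miR-101a-3p (0.357% of reads) and miR-24-3p (0.306%). The 57 held 7.95% of reads and the 23 held 0.708%, and both counts include entries without a read in these hearts. A match says only that these bases stand in the precursor.

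The 5′ end moved in fewer entries, but with it the seed. Of the 432 matched entries, 40 started at another base than RefSeq, which gave each of the 40 another seed by construction. The most abundant were miR-140-3p at 0.0971% and miR-101b-3p at 0.0824% of reads, both printed above. The largest entry of this kind by its suffix was miR-133a-3p itself, listed as L-1R+1, and this entry, with 9.65% of reads, is listed with a start 1 base later than the name's reference. A few listed sequences are so alike that reads cannot be divided with certainty. Among 325 entries with a mean of at least 10 reads, 22 shared their first 18 bases with another or lay inside it, in 15 pairs that include miR-378a-3p with miR-378c, miR-30c-5p with miR-30b-5p, miR-23a-3p with miR-23b-3p and let-7a-5p with let-7c-5p.

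The hearts were much alike in make-up. Over the 210 microRNAs with a mean of at least 100 reads, Pearson's r of log2 levels between any 2 hearts lay between 0.984 and 0.996, across microRNAs that share library and sequence and so are not independent. The SD of the log2 difference ran from 0.273 between hearts 947 and 956 to 0.543 between hearts 944 and 949. Those closest hearts stood on either side of 44% miR-1a-3p. The median coefficient of variation over hearts was 17.3% of all reads and 10.5% of the reads without miR-1a-3p, against 3.27% from counting alone. As percent of all reads, which the miR-1a-3p share also moves, it was over 2 times the counting value for 195 of 210.

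Among microRNAs with at least 1000 reads, the steadiest were miR-148a-3p, with a coefficient of variation of 5.81%, let-7f-5p at 5.91%, miR-125a-5p at 6.70% and miR-30d-5p at 7.05%, all of total reads. miR-101b-3p, miR-30e-3p, miR-101a-3p and miR-30a-5p followed at 7.46 to 8.13%. This order depends on the denominator: without miR-1a-3p, the values for miR-148a-3p and let-7f-5p were 8.80% and 11.4%. Both lay above the median of 8.74% that microRNAs with at least 10000 reads had without miR-1a-3p. With median-of-ratios scaling they were 11.8% and 13.3%, against a median of 8.95%. Both were therefore steady only as percent of all reads.

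The most variable were the miR-10 microRNAs, which lie in the Hox clusters and follow body position in the embryo. miR-10a-5p had 8850, 7837, 941, 10565, 4988 and 1395 reads in hearts 940, 944, 947, 949, 950 and 956, a coefficient of variation of 70.7%. miR-10b-5p had 3040, 3456, 719, 4496, 2537 and 739 reads in the same hearts (63.5%). Hearts 947 and 956 were lowest in both, and heart 949 was highest. The pair lie on different chromosomes, and their sequences differ in 1 base, so reads of one may stand under the other. Of the reads without miR-1a-3p the values were 69.6% and 60.0%. The 3p arm of miR-10a had 0 and 11 reads in the low hearts and 21 to 55 in the others.

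Next came miR-451a at 53.2% and miR-486a-3p at 37.7%, both tied to red cells. Heart 949 was lowest in miR-451a and highest in miR-486a-3p. The other hearts had the same order in both, from heart 944 (0.0380 and 0.0162% of reads) up to heart 950 (0.101 and 0.0226%). miR-497a-5p (28.8%), miR-378a-5p (26.8%), miR-328-3p (24.9%) and miR-139-5p (24.5%) varied less, and from 13.97 to 17.97% of the reads without miR-1a-3p. Below 1000 reads, the highest values were those of miR-6240 (111%) and miR-122-5p (80.8%), chosen here after their values were seen. Both rested largely on 1 heart, with 569 reads of miR-6240 in heart 949 against 11 to 193 elsewhere.

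**Figure D5:**
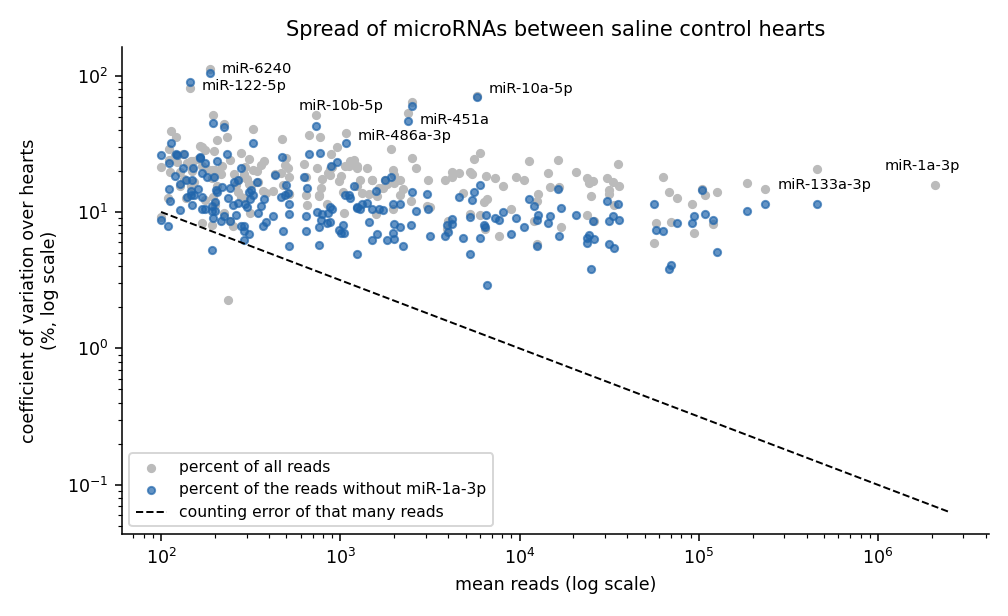
Coefficient of variation over 6 saline control hearts against mean reads (both log scales) for 210 microRNAs, as percent of all reads (grey) and of the reads without miR-1a-3p (blue), with the counting error of that many reads as a dashed line. The medians are 17.3% and 10.5%, nearly all points lie above the line, and miR-10a-5p, miR-10b-5p and miR-451a stand highest among microRNAs with at least 1000 reads.

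The last comparison sets the 3 hearts with miR-1a-3p at 44% of reads or more (940, 944 and 947) beside the 3 below (949, 950 and 956). The nearest values on either side of that line were 46.2% in heart 944 and 38.0% in heart 949. Since the hearts were divided by a measured value, counts and each heart's values are given, with no test. As percent of all reads, 0 of 209 other microRNAs (0%) were higher in each heart of the former than in each of the latter, and 130 (62.2%) were lower; these shares sum to 100% with that of miR-1a-3p. As percent of the reads without miR-1a-3p, 15 (7.18%) were higher and 37 (17.7%) lower without overlap. Some microRNAs separate by chance among so few hearts, and whether these counts exceed that was not tested. With median-of-ratios scaling 31 were higher and 22 lower. All 15 of the higher and 22 of the 37 lower kept their direction with it, the other 15 lower ones overlapped, and 0 changed direction.

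The named microRNAs kept their direction with both of these scalings. The widest gap was that of miR-497a-5p, a cell cycle regulator of the miR-15 group: it took 0.0586, 0.0598 and 0.0595% of the reads without miR-1a-3p in hearts 940, 944 and 947, and 0.0865, 0.0803 and 0.0794% in hearts 949, 950 and 956. miR-378a-5p took 0.193, 0.183 and 0.193% in the former and 0.242, 0.255 and 0.259% in the latter. let-7d-3p took 0.385, 0.349 and 0.383% against 0.452, 0.481 and 0.457%. miR-744-5p, miR-674-5p and miR-574-5p, less abundant, were lower in the same hearts.

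In the other direction, miR-148a-3p took 0.472, 0.510 and 0.505% of the reads without miR-1a-3p in hearts 940, 944 and 947, and 0.420, 0.428 and 0.429% in hearts 949, 950 and 956. miR-30d-5p took 3.84, 3.75 and 3.62% against 3.005, 3.198 and 3.437%. miR-1839-5p, miR-146b-5p, miR-30c-1-3p and miR-100-5p lay likewise, the first 3 of them at a mean of 235 to 253 reads. All 6 of these overlapped as percent of all reads. The median GC content of the listed sequences was 40.9% for the 15 that were higher, 50.0% for the 37 that were lower and 47.6% for all 209, with a median length of 22 bases in each. The part of base composition in these differences was not tested.

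Arm balance needs no scaling between hearts, since both arms are read in the same library. Of 105 pairs with a mean of at least 10 reads in each arm, the 5p share was higher in each of hearts 940, 944 and 947 than in each of the others for 7 (6.67%) and lower for 5 (4.76%). With so few hearts, some pairs separate this way by chance in each direction, and whether these counts exceed that was not tested. let-7d gave 61.9, 60.9 and 61.6% from 5p in the former and 58.1, 55.4 and 59.3% in the latter. miR-378a gave 2.71, 2.73 and 2.73% against 2.87, 3.70 and 4.05%. The gaps of miR-378a-5p and let-7d-3p above rest on the same reads as these shares, so they are not a separate observation. miR-126a, with 20.4 to 24.3% from 5p, overlapped between the hearts.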

How the data were processed

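The labels' protocols name the Qiagen miRNeasy kit for extraction and ACGT101-miR of LC Sciences for removing adapter dimers, low-complexity reads, repeats and other RNA classes. No source used here names the mapper, genome build or miRBase release. The authors deposited whole-number read counts for each entry, called raw in the file headers. They are written with commas inside quotes and are therefore classed here as another unit. Of 3570 values, 1096 were 0, 42 were 1 to 4 and 142 were 5. A pair of entries with 1 name or sequence and identical reads was counted as 1 (6 entries). Levels are percent of listed reads. Arms, summed over loci, were tested with limma 3.58.1 in R 4.3.3 (trended empirical Bayes, Benjamini-Hochberg, called below 0.05, pseudocount 1) and checked on simulated data. Abundance steps used exact sign-flip tests. Listed sequences are the authors' deposited ones; loci and reference forms are RefSeq's (GRCm38.p6).

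The microRNAs named are the 25 most abundant, the listed cell type markers and family members, the most abundant arm pairs and those with a lesser arm of at least 20%, the 8 steadiest and 8 most variable above 1000 reads, and up to 6 in each direction with the widest gap between hearts. Members and lists were chosen with earlier results of these data known. No molecular identifiers are named in the labels, so counting errors may understate the true error. Each library is 1 mouse, and SDs are over mice.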

Additional observations from a re-analysis of the deposited data

Results flagged for a closer look

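Of 92 values of named microRNAs and arm pairs examined, 7 had 1 heart whose gap to the nearest other was larger, as a share of the whole range, than Dixon's critical value for 6 samples. Chance gives about 1 in 20. miR-145a-3p was highest in heart 956, at 0.0767% of reads against 0.0637% in the next heart. miR-101a-3p was lowest in heart 940, at 0.302% against 0.359%. miR-486a-3p was highest in heart 949, at 0.0399% against 0.0226%. The other 4 were arm pairs in which 1 heart had the only reads of the minor arm, so that a few reads make the gap. The 5p share was 99.5% for miR-192 in heart 956, 99.5% for miR-155 in heart 950 and 99.4% for miR-194 in heart 944, against 100% elsewhere. For miR-223 it was 1.10% in heart 950 against 0% elsewhere.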

How the results depend on the processing

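Of the values answering a comparison, the miR-1a-3p share, the share of the 10 most abundant microRNAs and the number of unequal arm pairs moved within their spread, or by less than 1.5 times, in every alternative run. These were counting every entry as deposited, named entries only, other pseudocounts and filters, and each heart left out. Without each heart in turn they ranged from 41.3 to 44.2%, from 74.1 to 75.4% and from 139 to 141 pairs, and the number of microRNAs holding 90% of reads from 27 to 28, and the median spread from 16.3 to 18.3%. In all, 50% of the reads came from 2 microRNAs and 99% from 102, where 90% came from 27. The median spread was 10.5% without miR-1a-3p and 10.7% with median-of-ratios scaling. Between the hearts above and below 44% miR-1a-3p, 0 microRNAs were higher and 130 lower as percent of all reads, and 31 higher and 22 lower with median-of-ratios scaling. With at least 100 reads in each arm, a setting added after the data were seen, 3 pairs had a higher and 2 a lower 5p share. Besides miR-322, the arm calls of miR-409 (without heart 944, 947, 949, 950 or 956; limma adjusted p from 0.0566 to 0.111) and miR-671 (without 940 or 950; 0.0719 and 0.0619) were lost. Taking miR-1a-3p out of the total moved 57 of 61 named shares, which follows by arithmetic from the smaller total. No paired analysis was possible because only 1 group was used. Low counts limit the rarest names, and near-identical microRNAs may share reads.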

Other observations

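Entries other than named mature microRNAs took few reads in these hearts. The 26 entries from other parts of precursors held 0.0268 to 0.163% of reads, highest in heart 949, and the 41 predicted microRNAs held 0.0157 to 0.0324%, also highest there. The imprinted Dlk1-Dio3 cluster, active in fetal tissue, was at a low level: 42 of its 51 listed products had reads, and all together they held 0.0469% ± 0.0114 of reads (SD, n = 6), from 0.0361 to 0.0673%. The oncogenic miR-17 to miR-92a group with its relatives held 0.368% ± 0.0666 (SD, n = 6), led by miR-92a-3p and miR-25-3p. miR-21a-5p, which fibroblasts raise on activation, was the most abundant microRNA outside the first 25, at 0.528% ± 0.0691 (SD, n = 6).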
